A study of Mus musculus with 20 samples.

Results

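The genes described here encode the proteins that dock, prime and fuse secretory vesicles: the synaptotagmins (Syt), synapsins (Syn1 to Syn3), syntaxins (Stx), SNAP and VAMP proteins, syntaxin-binding proteins (Stxbp), complexins (Cplx), Munc13 proteins (Unc13) and the vesicle glycoproteins Sv2a to Sv2c. Members were taken by gene symbol, and a mean of at least 0.5 CPM, the count scaled to a common library total, over the 20 libraries was required. Of 32941 named genes, 65 had a matching symbol and 62 of these passed the minimum. The members nearest above it were Vamp9, with a mean of 0.758 CPM, and Unc13d, with 1.28 CPM. The 3 genes below it were Cplx4, with 0.0827 CPM, Stx19, with 0.00476 CPM, and Syt8, with 0.00219 CPM.

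Transmitter is released when a vesicle SNARE (a VAMP) zips together with plasma membrane SNAREs (a syntaxin and SNAP25) and pulls the membranes into one. Munc18 and Munc13 proteins build this complex, complexins clamp and activate it, and a synaptotagmin on the vesicle triggers fusion when it binds calcium. Most of these proteins come as families of close paralogues, and fast synapses of the hindbrain and spinal cord are known for other paralogues than those of the forebrain. In a sensory ganglion the cell bodies make these transcripts for terminals that lie elsewhere, in the skin, meninges and brainstem.

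RNA was sequenced from the trigeminal ganglia (TG), which hold the sensory neurons of the face and head, and from the nucleus accumbens (NAc), a region of the ventral striatum made up mostly of inhibitory projection neurons. The 10 donors were male C57BL/6J mice aged 9 to 12 weeks, and the labels name no altered allele. Of these, 5 mice had received morphine and are labelled OIH (opioid-induced hyperalgesia), and 5 had received vehicle. Each mouse gave both tissues, taken 24 h after its last injection, so that 4 groups of 5 libraries resulted. The sources used here give no morphine dose or schedule. The design asks what differs after morphine in each tissue, and the shared mice also allow the tissues to be compared.

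The libraries held 61285916 to 76110288 estimated counts in TG and 52402037 to 64357778 in NAc. Sensory neuron markers followed the labels, since 11 of 12 were higher in TG and the exception was the widely expressed receptor gene Ntrk2. All 12 markers of medium spiny neurons, which send the output of the striatum, were higher in NAc. No marker of either list was at 0 in the other tissue on average. The 5 markers most specific to sensory neurons stood in NAc at 0.153% to 0.419% of their TG level, and 5 of medium spiny neurons stood in TG at 0.828% to 1.16% of their NAc level. The summed level of 15 pan-neuronal genes was 24359 ± 429 in TG and 6687 ± 577 CPM in NAc of vehicle mice (SD, n = 5), but 9 of the 15 were higher in TG and 6 lower. Map1b, Nefm and Nefl made up 68.3% of that sum in TG and 18.7% in NAc. The mean of Nefm was 5173 in TG and 135 CPM in NAc, while Map2 stood at 295 and 1185 CPM and Gap43 at 124 and 292 CPM. The summed level of 10 Schwann cell genes was 10728 ± 1039 in TG and 510.1 ± 24.95 CPM in NAc. In bulk tissue, fewer cells of a type and less RNA per cell cannot be told apart. The NAc libraries also differed among themselves. The median coefficient of variation of the 62 members was 15.3% among NAc vehicle libraries, 9.35% among NAc morphine libraries, 5.01% among TG vehicle libraries and 6.11% among TG morphine libraries. NAc vehicle library 2 stood apart, with 119.8 CPM of the dopamine receptor gene Drd1 against 192 to 342 CPM in the other NAc libraries.

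Promoter sequence is shown for 6 members whose paralogues were used unequally in the tissues or that hold a searched motif. RefSeq windows of GRCm38.p6 were available for 48 members in 61 windows, and the 250 bases before each start were searched on both strands. The GC box GGGCGG was in 37 of the 61 windows (60.7%) and in 32.7% of all 32851 windows of that length. It was in 62.1% of the windows of members higher in TG and in 60.9% of those of members lower in TG. The left arm of the RE1 element (bound by the repressor REST), TTCAGCACC, was in 1 member window (1.64%), that of Syn1, and in 0.301% of all windows. The cAMP response element TGACGTCA was in 2 member windows (3.28%), those of Syn1 and Stxbp3, and in 1.55% of all windows. The motifs searched do not overlap each other in these windows, capitals mark their matches (CCGCCC is the GC box on the other strand), and each sequence runs 5′ to 3′ toward the start. GC content was 76.0% in the Syt2 window, 68.0% in that of Syn1, 64.8% in that of Cplx1, 56.4% in that of Syt1, 50.8% in that of Cplx2, which held no match, and 50.4% in that of Vamp1. Syt1 and Syt2 have 2 windows each, of which the first listed is printed, and the other 4 genes have 1. Syn1 lies at chrX:20920919-20921168 (minus strand), Syt1 at chr10:109010976-109011225 (minus), Syt2 at chr1:134646362-134646611 (plus), Cplx1 at chr5:108550028-108550277 (minus), Cplx2 at chr13:54302306-54302555 (plus) and Vamp1 at chr6:125215331-125215580 (plus), where the positions are those of the printed windows.
Syn1: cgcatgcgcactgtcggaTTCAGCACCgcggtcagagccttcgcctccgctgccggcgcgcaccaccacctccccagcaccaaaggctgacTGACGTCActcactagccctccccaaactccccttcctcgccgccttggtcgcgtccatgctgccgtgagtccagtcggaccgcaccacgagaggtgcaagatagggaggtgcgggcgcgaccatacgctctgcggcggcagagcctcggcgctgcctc
Syt1: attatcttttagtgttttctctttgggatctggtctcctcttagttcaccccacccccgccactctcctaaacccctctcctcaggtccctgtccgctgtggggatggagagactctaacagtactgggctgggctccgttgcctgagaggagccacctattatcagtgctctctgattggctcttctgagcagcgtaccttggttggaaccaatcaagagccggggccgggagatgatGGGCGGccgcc
Syt2: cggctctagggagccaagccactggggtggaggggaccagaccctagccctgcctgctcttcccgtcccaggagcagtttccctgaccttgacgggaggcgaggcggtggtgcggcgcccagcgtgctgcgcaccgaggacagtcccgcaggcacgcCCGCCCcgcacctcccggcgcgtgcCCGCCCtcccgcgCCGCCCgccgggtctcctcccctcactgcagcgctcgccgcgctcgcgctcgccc
Cplx1: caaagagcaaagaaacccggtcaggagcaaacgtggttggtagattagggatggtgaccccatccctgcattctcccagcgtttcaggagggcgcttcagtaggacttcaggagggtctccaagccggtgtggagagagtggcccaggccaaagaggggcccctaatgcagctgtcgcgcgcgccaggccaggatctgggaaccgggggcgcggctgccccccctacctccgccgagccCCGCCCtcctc
Cplx2: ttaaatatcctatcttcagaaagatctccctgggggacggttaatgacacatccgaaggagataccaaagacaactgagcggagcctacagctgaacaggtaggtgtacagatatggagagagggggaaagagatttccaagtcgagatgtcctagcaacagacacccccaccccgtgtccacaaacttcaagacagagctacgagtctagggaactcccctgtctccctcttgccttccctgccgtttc
Vamp1: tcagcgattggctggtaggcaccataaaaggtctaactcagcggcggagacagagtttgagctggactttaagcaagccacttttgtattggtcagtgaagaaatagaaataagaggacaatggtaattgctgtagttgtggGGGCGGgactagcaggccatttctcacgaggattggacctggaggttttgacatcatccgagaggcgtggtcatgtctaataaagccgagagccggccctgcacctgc

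The fusion machinery was present in both tissues, but the balance of some paralogues differed. Levels were compared between genes per kilobase of transcript, which was possible for 48 members. In TG of vehicle mice, Snap25, the SNARE of regulated exocytosis in neurons, was highest at 735 ± 21.8 CPM per kb (SD, n = 5), and Cplx1 (519 ± 14.1), Vamp1 (317 ± 7.59) and Syt11 (268 ± 6.599) followed. In NAc, Snap25 was again highest at 647 ± 129.8 CPM per kb, and Vamp2 (277 ± 45.7), Syt1 (250.2 ± 44.0) and Cplx2 (245 ± 54.3) followed. These 3 NAc genes did not differ from each other beyond their spread, while the order of the 4 TG genes did not overlap within 1 SD. Among all 62 members, 54 differed between TG and NAc of vehicle mice at an adjusted p of 0.05 (quasi-likelihood test of edgeR, Benjamini-Hochberg adjustment over all features), where 67.4% of all 32998 features did. Of the 54, 27 were higher in TG and 27 lower, against 32.9% and 34.5% of all features. The median log2 difference, TG minus NAc, was 0.06 for the members and -0.06 for all features. In morphine mice 53 members differed, 26 higher and 27 lower, against 33.4% and 34.9% of all features (68.2% together). The members passing an unadjusted p of 0.05 were the same number, 54 in vehicle and 53 in morphine mice, against 69.6% and 70.5% of all features. Of these, 52 were called in both sets of mice with the same sign, but both comparisons use the same scaling and a shared estimate of the spread. The 20 libraries of 44 members fell into a TG and an NAc range that did not overlap, as did 54.5% of 25752 features.

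The balance of 27 and 27 depends on what the libraries are scaled to. When the summed counts of the 15 pan-neuronal genes were taken as the library size, 5 members were higher and 53 lower in TG of vehicle mice, and 86.5% of all features were called. In morphine mice the split was 5 and 52, with 86.8% of all features called. That scaling moved the median of all features to -1.93, so it asks about levels relative to that pan-neuronal sum, most of which in TG comes from 3 genes. The 5 members still higher in TG were Syt2, Vamp1, Stx11, Syt9 and Vamp8, 4 others (Stx2, Sv2c, Vamp4 and Vamp5) passed no threshold, and the other 18 turned lower. Scaling by the median ratio of the same 15 genes, in which each gene counts alike, was added after seeing the data. It moved the median of all features to -0.81 in vehicle mice, and 11 members were higher and 41 lower in TG, with 75% of all features called. In morphine mice 12 were higher and 40 lower, with 75.6% of all features called. The 11 were Syt2, Vamp1, Stx11, Syt9, Vamp8, Stx2, Sv2c, Vamp4, Vamp5, Cplx1 and Syt15, while 7 of the 27 turned lower, Snap29, Stx4a, Stx17, Stxbp3, Syt3 and Vamp3 among them, and 9 were not called. Below, pan-neuronal scaling means scaling by the sum, which turned 18 of the 27 lower where the median ratio turned 7 lower. With library size alone the median of all features was -0.21 and the split was 23 and 30 in vehicle mice and 24 and 30 in morphine mice, and no called member changed sign.

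**Figure D1:**
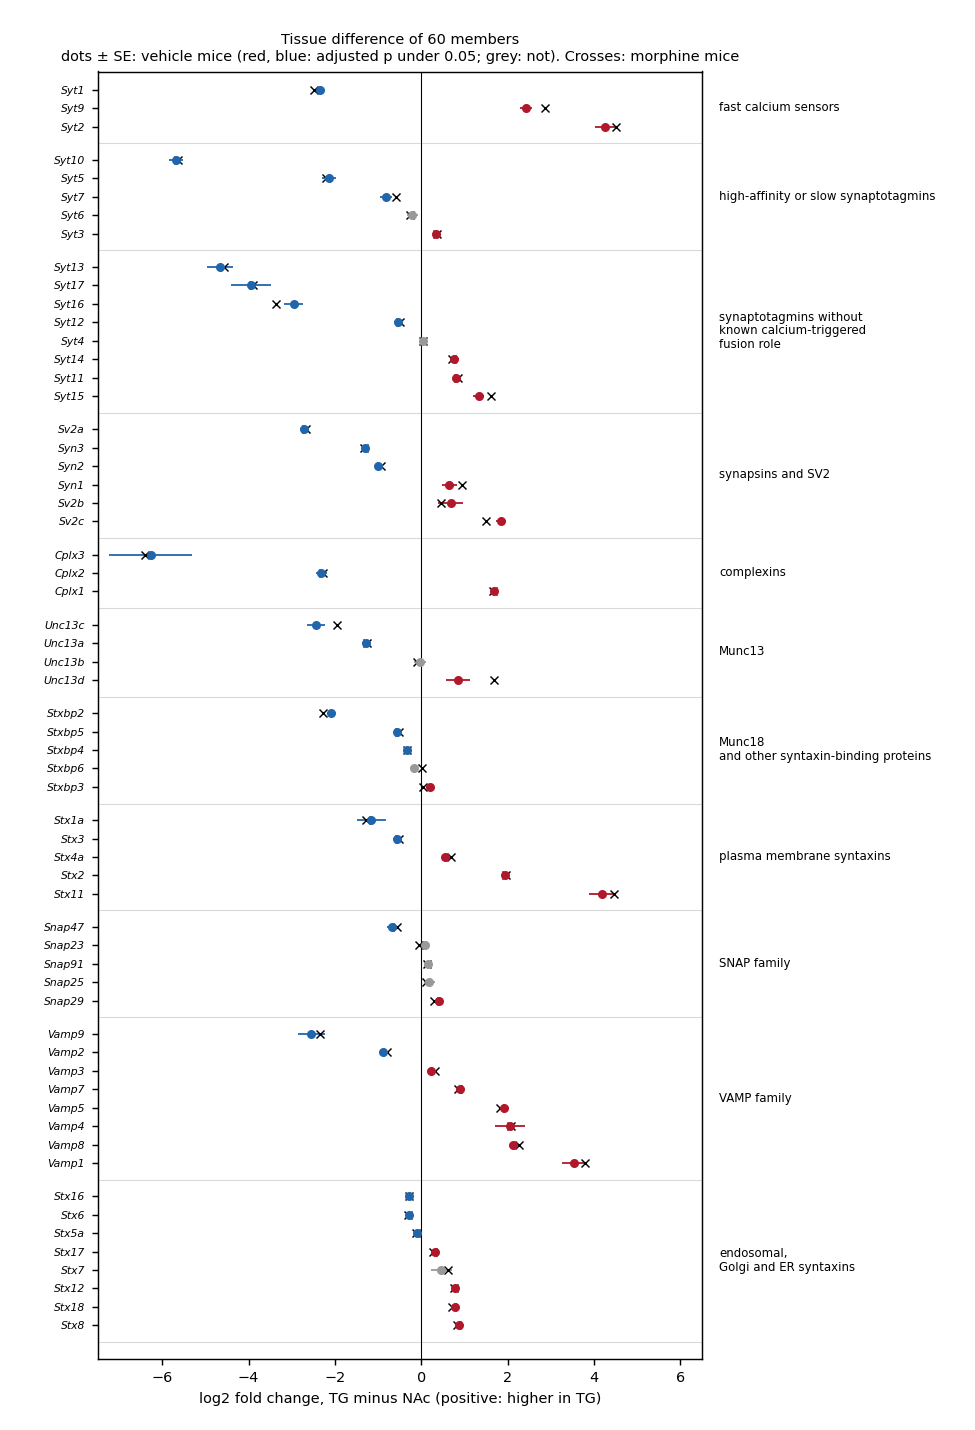
The log2 fold change between TG and NAc is plotted for 60 members, grouped by role, with dots and SE for vehicle mice and crosses for morphine mice. With scaling by TMM factors the dots run from -6.26 (Cplx3) to 4.26 (Syt2), red dots are called higher in TG and blue dots lower, and 18 of the 27 members called higher turn lower when libraries are scaled to the sum of the pan-neuronal genes and 7 when they are scaled to the median ratio of these genes.

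The fast calcium sensors were divided between the tissues. Syt1 and Syt2 trigger synchronous release in forebrain and in hindbrain or neuromuscular synapses, respectively, and Syt9 was grouped with them here. In TG, the 5 vehicle libraries held 611, 618, 651, 603 and 623 CPM of Syt2 and the 5 morphine libraries 585, 631, 608, 617 and 618 CPM. The NAc libraries held 22.7, 56.7, 31.3, 30.7 and 20.5 CPM with vehicle and 26.6, 21.1, 28.3, 20.95 and 36.7 CPM with morphine. All TG libraries were far above the highest NAc library, and NAc vehicle library 2 held the most within NAc. The log2 difference in vehicle mice was 4.26 ± 0.23 (SE, adjusted p = 7.62e-12), and it was 2.42 ± 0.19 with pan-neuronal scaling. The TG libraries gave 227, 232, 237, 237 and 231 CPM of Syt1 with vehicle and 224, 211, 223, 239.8 and 248 CPM with morphine. In NAc the values were 1092, 1074, 1522, 1251 and 997 CPM with vehicle and 1324, 1163, 1591, 1277 and 1101 CPM with morphine. Every NAc library was above every TG library, and the difference was -2.35 ± 0.11 (adjusted p = 5.24e-13). Syt9 averaged 89.8 ± 5.35 in TG and 16.7 ± 4.08 CPM in NAc of vehicle mice (SD, n = 5), a difference of 2.43 ± 0.13 that was 0.57 ± 0.11 with pan-neuronal scaling.

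Among the synaptotagmins of high calcium affinity or slow action, 3 of 5 were lower in TG and Syt3 was higher, although Syt3 turned lower with pan-neuronal scaling. Syt10, a calcium sensor of peptide release in olfactory bulb neurons, showed the widest gap. Syt10 stood at 1.64, 1.45, 1.67, 1.83 and 1.39 CPM in TG vehicle libraries 1 to 5 and at 1.94, 1.58, 1.799, 1.57 and 1.74 CPM in TG morphine libraries 1 to 5. Its NAc levels were 82.2, 74.3, 63.4, 77.4 and 112 CPM with vehicle and 95.8, 96.1, 70.6, 79.5 and 88.5 CPM with morphine. The 2 ranges were far apart, and the log2 difference was -5.68 ± 0.15 (adjusted p = 2.67e-16). Syt5 averaged 7.33 ± 1.07 in TG and 32.3 ± 5.07 CPM in NAc. Syt7, a slow sensor of asynchronous release, averaged 49.4 ± 5.58 and 87.5 ± 18.7 CPM, with overlap between the tissues over all 20 libraries. Syt6 (91.2 ± 4.65 and 105 ± 28.1 CPM) passed in neither set of mice.

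Of the 8 synaptotagmins without a known role in calcium-triggered fusion, 4 were lower in TG and 3 higher, the last 3 (Syt11, Syt14 and Syt15) only without pan-neuronal scaling. With the median ratio, Syt15 alone of these stayed higher (0.56 ± 0.15). Syt11, which restrains endocytosis in neurons, averaged 1223 ± 30.1 in TG against 697 ± 25.5 CPM in NAc. Syt13, whose C2 domains lack the calcium-binding residues, averaged 4.04 ± 0.735 in TG and 102 ± 45.6 CPM in NAc, a difference of -4.66 ± 0.30 (adjusted p = 8.35e-11). Its NAc vehicle libraries ran from 40.7 to 149.9 CPM, so the size of the gap differed by library while its sign did not. Syt17 (1.05 ± 0.397 and 16.3 ± 9.504 CPM) and Syt16 (3.28 ± 0.829 and 25.5 ± 5.598 CPM) were likewise lower in TG. Syt12 was also lower, with a log2 difference of -0.54 ± 0.09. Syt4, which lies on dense-core vesicles, stood at 263 ± 9.91 in TG and 256 ± 20.1 CPM in NAc, a difference of 0.04 ± 0.05 (adjusted p = 0.493).

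Complexins bind the assembled SNARE complex. In TG, the 5 vehicle libraries held 1107, 1111, 1151, 1129.6 and 1182 CPM of Cplx1 and the 5 morphine libraries 1149, 1152, 1112, 1168 and 1151 CPM. The NAc libraries held 356, 366, 402, 366 and 291 CPM with vehicle and 346, 351, 399.5, 355 and 350.0 CPM with morphine. Every TG library exceeded every NAc library, and the difference was 1.67 ± 0.06 (adjusted p = 2.39e-14). It turned to -0.19 ± 0.04 with pan-neuronal scaling but stayed at 0.93 ± 0.05 with the median ratio. Cplx2 ran the other way. The TG libraries gave 219, 242, 245, 242 and 263 CPM of Cplx2 with vehicle and 239, 215, 231, 257 and 264 CPM with morphine. In NAc the values were 1251, 817, 1234, 1157 and 1566 CPM with vehicle and 1285, 1129, 1389.9, 1003 and 1057 CPM with morphine. Its difference was -2.32 ± 0.13 (adjusted p = 1.43e-11). Cplx3, the complexin of retinal ribbon synapses, was near the detection limit in TG, at 0.0816 to 0.218 CPM in vehicle libraries and 0.0665 to 0.155 CPM in morphine libraries. In NAc it stood at 6.29, 0.983, 25.9, 15.7 and 0.633 CPM in the vehicle libraries and at 12.97, 5.37, 16.7, 11.6 and 1.68 CPM in the morphine libraries. These NAc values spread more than those of any other member, and the difference from TG was -6.26 ± 0.96.

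Of the 8 vesicle SNAREs, 6 were higher in TG, where 32.9% of all features were, but the role groups are too small to rank. Of these 6, only Vamp1 and Vamp8 stayed higher with pan-neuronal scaling, and Vamp4 and Vamp5 also did with the median ratio. Vamp1 and Vamp2 are the synaptobrevins, the vesicle SNAREs of transmitter release. Vamp1 stood at 879.8, 886, 892, 848 and 905 CPM in TG vehicle libraries 1 to 5 and at 877, 931, 909, 861 and 869.6 CPM in TG morphine libraries 1 to 5. Its NAc levels were 60.8, 154, 64.8, 63.4 and 39.2 CPM with vehicle and 56.2, 63.6, 64.4, 58.4 and 76.3 CPM with morphine. NAc vehicle library 2 was the highest in NAc by a wide margin, and still far below every TG library. The difference was 3.53 ± 0.26 (adjusted p = 5.49e-10), it was 3.95 without that library, and it was 1.70 ± 0.21 with pan-neuronal scaling. In TG, the 5 vehicle libraries held 301, 322, 344, 348 and 347 CPM of Vamp2 and the 5 morphine libraries 352, 328, 325, 372 and 367 CPM. The NAc libraries held 618, 578, 729.8, 669.7 and 463 CPM with vehicle and 563, 609, 718, 607 and 547 CPM with morphine. Vamp2 was thus higher in every NAc library than in any TG library, with a difference of -0.88 ± 0.10 (adjusted p = 1.88e-07). Vamp4, of the trans-Golgi network and endosomes, averaged 35.1 ± 2.17 in TG and 8.48 ± 6.86 CPM in NAc, where vehicle library 2 again was highest at 20.3 CPM. Vamp8, of late endosomes and secretory granules outside neurons, averaged 13.9 ± 1.11 and 3.21 ± 0.258 CPM, and Vamp5, best known from muscle, 7.296 ± 0.957 and 1.94 ± 0.232 CPM. Vamp7, of lysosomes and neurite outgrowth, and Vamp3, of recycling endosomes, were higher in TG by 0.90 ± 0.06 and 0.23 ± 0.05, and both turned lower with pan-neuronal scaling. Vamp9 was lower in TG (log2 difference -2.55 ± 0.32) at a low level, 0.212 ± 0.0894 against 1.25 ± 0.384 CPM.

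Of the 6 plasma membrane syntaxins, 3 were higher in TG (Stx11, Stx2 and Stx4a) and 3 lower, Stx1a and Stx3 among them. With pan-neuronal scaling Stx4a turned lower and Stx2 was not called, while Stx2 stayed higher with the median ratio (1.18 ± 0.11). Stx1a, a syntaxin of synaptic release, averaged 18.5 ± 1.401 in TG and 41.1 ± 21.99 CPM in NAc, where the vehicle libraries ran from 22.4 to 74.6 CPM. Stx11, which serves granule release in cytotoxic lymphocytes, stood at 2.896, 3.74, 2.83, 2.95 and 3.36 CPM in the TG vehicle libraries and at 0.185, 0.276, 0.128, 0.151 and 0.117 CPM in the NAc vehicle libraries. These ranges were well apart at a low level, with a difference of 4.19 ± 0.30 (adjusted p = 3.09e-10) that was 2.34 ± 0.28 with pan-neuronal scaling. Of 8 microglia and macrophage markers, 6 were lower in TG and 2 were not called, with a summed level of 43.4 to 105 CPM in TG and 134 to 192 CPM in NAc of vehicle mice, and the part of immune cells in the Stx11 difference was not tested. Stx2 averaged 68.6 ± 2.66 in TG and 17.9 ± 1.495 CPM in NAc, with no overlap. Among the 8 syntaxins of endosomes, the Golgi and the endoplasmic reticulum, 4 were higher in TG (Stx8, Stx12, Stx17 and Stx18), each turning lower with pan-neuronal scaling, and 3 were lower (Stx5a, Stx6 and Stx16). Their differences ran only from -0.29 ± 0.05 (Stx16) to 0.86 ± 0.06 (Stx8). Stx7 passed in morphine mice alone, 0.62 ± 0.24 (adjusted p = 0.0311), and at 0.46 ± 0.24 did not in vehicle mice.

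In the SNAP family 3 of 5 members were not called between the tissues. The TG libraries gave 1515, 1508, 1565, 1440.1 and 1519 CPM of Snap25 with vehicle and 1474, 1551, 1474, 1475 and 1517 CPM with morphine. In NAc the values were 1204, 1096, 1758, 1413 and 1176 CPM with vehicle and 1411, 1189, 1914, 1323 and 1139.9 CPM with morphine. The TG range lay inside the NAc range, and the difference was 0.18 ± 0.13 (adjusted p = 0.209), but with pan-neuronal scaling it was -1.68 ± 0.12. Snap91 encodes AP180, a clathrin adaptor of vesicle retrieval that shares only its name with the SNAREs, and averaged 308 ± 9.43 in TG and 277 ± 39.96 CPM in NAc. Snap23, the SNAP of non-neuronal secretion, averaged 19.6 ± 0.966 and 18.5 ± 1.65 CPM. Snap29 was higher in TG by 0.40 ± 0.05, and turned lower with pan-neuronal scaling, and Snap47 was lower, with a log2 difference of -0.68 ± 0.11.

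Each of the synapsin and SV2 families, which tether vesicles and sit in the vesicle membrane, was split. Syn1 was higher in TG (336 ± 33.6 against 215 ± 58.7 CPM), and turned lower with pan-neuronal scaling, while Syn2 (183 ± 8.38 against 366 ± 36.1 CPM) and Syn3 (30.3 ± 0.985 against 74.9 ± 6.299 CPM) were lower. Sv2a stood at 56.8, 58.9, 60.9, 60.8 and 62.3 CPM in TG vehicle libraries 1 to 5 and at 62.9, 60.5, 61.99, 63.9 and 61.03 CPM in TG morphine libraries 1 to 5. Its NAc levels were 353, 522, 403, 393 and 298 CPM with vehicle and 367, 388, 420.2, 386 and 403 CPM with morphine. All NAc libraries were above all TG libraries by several fold, and the difference was -2.72 ± 0.10 (adjusted p = 2.97e-14). In TG, the 5 vehicle libraries held 258, 307, 253, 227 and 239.9 CPM of Sv2c and the 5 morphine libraries 229.7, 235, 263, 214 and 263 CPM. The NAc libraries held 85.2, 71.3, 54.3, 67.3 and 80.1 CPM with vehicle and 85.2, 93.2, 76.9, 86.1 and 83.5 CPM with morphine. Sv2c was higher in every TG library, by 1.84 ± 0.11 (adjusted p = 1.77e-11). Its difference was -0.04 ± 0.12 with pan-neuronal scaling and 1.07 ± 0.15 with the median ratio. Sv2b averaged 358 ± 6.74 in TG and 223 ± 115 CPM in NAc, where the vehicle libraries ran from 89.2 to 395 CPM. Its call in vehicle mice (adjusted p = 0.0426) was lost when any 1 of the 5 TG vehicle libraries or NAc vehicle library 1, 2 or 5 was left out, it was not called in morphine mice (adjusted p = 0.171), and it turned lower with pan-neuronal scaling.

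**Figure D2:**
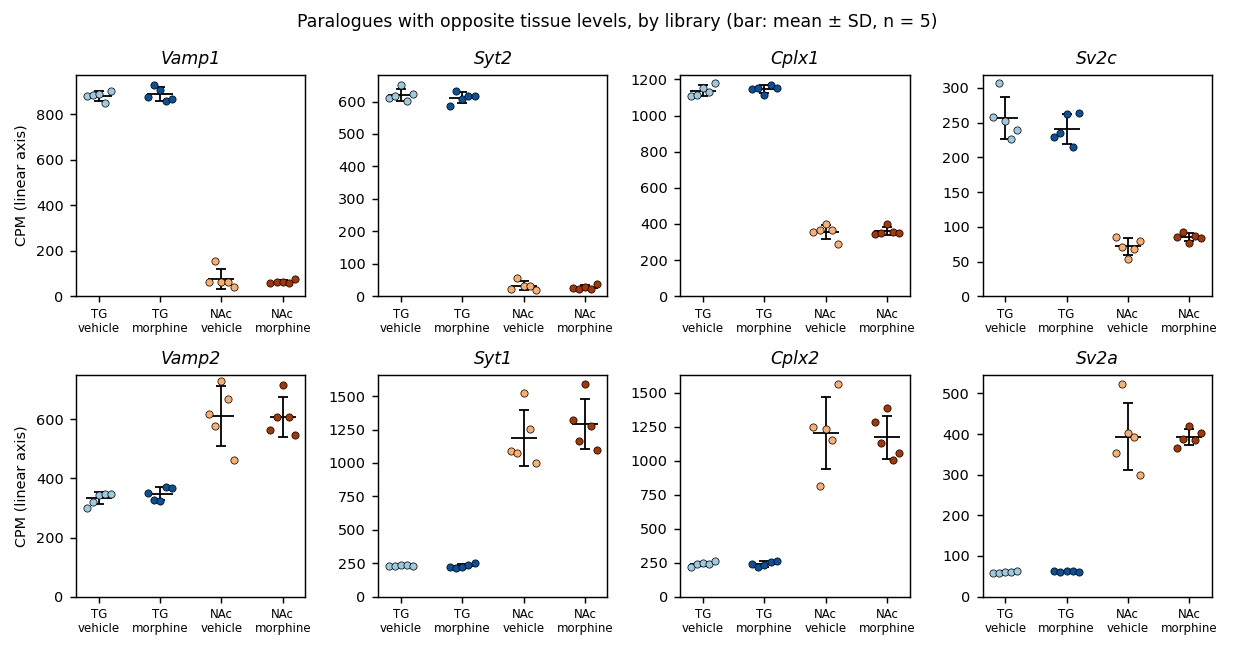
CPM of 4 paralogue pairs are plotted for every library on linear axes that start at 0, with the mean and SD of each group of 5. The upper genes (Vamp1, Syt2, Cplx1 and Sv2c) are higher in TG than in NAc and the lower genes (Vamp2, Syt1, Cplx2 and Sv2a) the reverse. With scaling by the pan-neuronal sum Cplx1 turns lower in TG and Sv2c is not called, while both stay higher with the median ratio.

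The ratio of 2 genes within a library does not depend on scaling. The log2 ratio of Vamp1 to Vamp2 was 1.41 ± 0.10 in TG vehicle libraries and -3.14 ± 0.70 in NAc vehicle libraries (SD, n = 5), on the CPM scale. That of Syt2 to Syt1 was 1.42 ± 0.04 in TG and -5.28 ± 0.59 in NAc, and that of Cplx1 to Cplx2 was 2.23 ± 0.06 and -1.74 ± 0.46. In these 3 pairs the ratio had opposite signs in the tissues, and the 10 libraries of each tissue did not overlap. Each pair joins genes already called in opposite directions between the tissues, so this separation restates those calls and is no further test. The ratio of Sv2c to Sv2a moved from 2.09 ± 0.19 to -2.45 ± 0.46, that of Sv2b to Sv2a from 2.58 ± 0.06 to -0.96 ± 0.95 and that of Syn1 to Syn2 from 0.87 ± 0.09 to -0.81 ± 0.29, again without overlap. For Unc13c to Unc13a it was -2.62 ± 0.12 in TG and -1.51 ± 0.52 in NAc, and the tissues overlapped once the morphine libraries were included. In morphine mice the ratio of Vamp1 to Vamp2 was 1.35 ± 0.14 in TG and -3.26 ± 0.25 in NAc, and that of Syt2 to Syt1 was 1.42 ± 0.10 and -5.61 ± 0.41. The values of these 2 pairs lay within 1 SD of the vehicle values in both tissues, but those of other pairs lay further apart, which was not tested. In TG the ratio of Syn1 to Syn2 was 0.87 ± 0.09 with vehicle and 1.03 ± 0.02 with morphine, without overlap, and that of Unc13c to Unc13a was -2.62 ± 0.12 and -2.32 ± 0.18, with overlap. In NAc the ratio of Syt9 to Syt1 was -6.17 ± 0.44 with vehicle and -6.70 ± 0.04 with morphine, without overlap. These 3 comparisons were picked from all the pairs for lying apart. How often other gene pairs separate in this way was not examined, and edgeR called no member for morphine in either tissue.

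Munc18 and Munc13 proteins prepare the syntaxin for fusion. Stxbp2 (Munc18-2), of granule release in immune and epithelial cells, was lower in TG at 14.05 ± 1.66 against 59.4 ± 9.14 CPM. Stxbp5 (tomosyn), which blocks SNARE assembly, and Stxbp4 were lower in TG, with log2 differences of -0.56 ± 0.05 and -0.34 ± 0.04. Stxbp3 (Munc18-3) was called in vehicle mice alone (0.19 ± 0.07, adjusted p = 0.0316), its call was lost without TG vehicle library 2 or NAc vehicle library 3 or 4, and it turned lower with pan-neuronal scaling. Stxbp6 (amisyn), at -0.18 ± 0.09, was not called. Among the Munc13 genes, Unc13a, the main priming factor of glutamate synapses, averaged 164 ± 7.80 in TG and 398 ± 70.7 CPM in NAc. Unc13c, best known from the cerebellum, averaged 26.7 ± 1.704 and 145 ± 48.2 CPM. Both were lower in every TG library than in any NAc library. Unc13b (32.7 ± 1.57 and 33.6 ± 7.97 CPM) was not called, and Unc13d, of cytotoxic granules, was higher in TG at a low level (1.44 ± 0.417 against 0.795 ± 0.284 CPM) but lower with pan-neuronal scaling.

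Within the NAc, the levels of a few members varied among libraries with that of Slc17a7, the vesicular glutamate transporter gene of cortical neurons. Slc17a7 stood at 148, 2.86, 692, 389 and 9.36 CPM in the vehicle libraries and at 278, 139.7, 670.0, 339.7 and 36.6 CPM in the morphine libraries. The low and the high libraries thus belonged to both treatments. Over the 10 NAc libraries, log2 levels were correlated with Slc17a7 for each of 25751 features with a mean of at least 0.5 CPM over all 20 libraries (a constant of 0.01 CPM added, 100000 permutations, 2-sided, adjusted over all of these features). Of the 62 members, 3 passed on both Pearson's and Spearman's measure, where 0.808% of all features did. These 3 were positive and no member passed with a negative sign, against 0.699% positive and 0.109% negative over all features. Cplx3 had Pearson's r = 0.96 (permutation p = 7e-05, adjusted 0.0178) and Spearman's rho = 0.98 (permutation p = 3e-05, adjusted 0.0166), and r was 0.983 without NAc vehicle libraries 2 and 5, the 2 farthest from the median. Sv2b had Pearson's r = 0.90 (permutation p = 6e-05, adjusted 0.0178) and Spearman's rho = 0.92 (permutation p = 0.00064, adjusted 0.0398), with r of 0.928 without those 2 libraries. Unc13b had Pearson's r = 0.89 (permutation p = 0.0003, adjusted 0.0373) and Spearman's rho = 0.95 (permutation p = 0.00011, adjusted 0.0198), with r of 0.987 without them. These 3 kept their sign and size without the 2 libraries. Stx1a passed on Spearman's rho alone, with Pearson's r = 0.87 (permutation p = 0.00081, adjusted 0.0612) and Spearman's rho = 0.94 (permutation p = 0.0002, adjusted 0.0246) and r of 0.962 without the 2. So did Snap25, with Pearson's r = 0.77 (permutation p = 0.0128, adjusted 0.197) and Spearman's rho = 0.96 (permutation p = 7e-05, adjusted 0.0188) and r of 0.862 without the 2. Negative values did not pass the adjustment. Unc13c had Pearson's r = -0.77 (permutation p = 0.00747, adjusted 0.163) and Spearman's rho = -0.89 (permutation p = 0.00103, adjusted 0.0521), with r of -0.907 without the 2. Syn3 had Pearson's r = -0.74 (permutation p = 0.0131, adjusted 0.198) and Spearman's rho = -0.84 (permutation p = 0.00352, adjusted 0.101), with r of -0.685 without the 2. Stxbp6 had Pearson's r = -0.82 (permutation p = 0.00360, adjusted 0.122) and Spearman's rho = -0.75 (permutation p = 0.0168, adjusted 0.224), with r of -0.376 without the 2, so its value rests on them. The groups of 5 are too small for a correlation within each treatment. The Slc17a7 level is a property of the whole library, and which cells carried it was not tested.

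**Figure D3:**
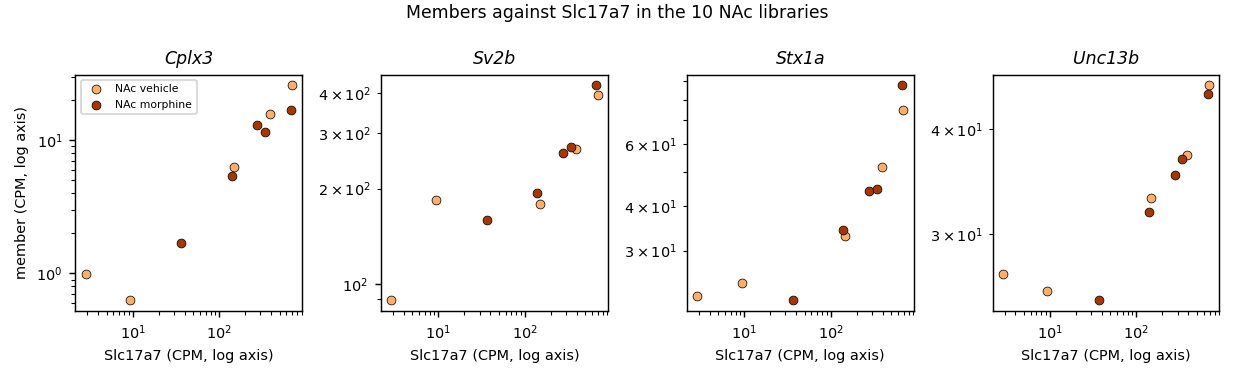
CPM of Cplx3, Sv2b, Stx1a and Unc13b are plotted against CPM of Slc17a7 in the 10 NAc libraries on log axes, with pale points for vehicle and dark points for morphine, where Stx1a passed on Spearman's rho alone. All 4 genes are highest in the 2 libraries with the most Slc17a7, 692 and 670.0 CPM, and the treatments are mixed along the axis.

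No member was called for morphine in TG (edgeR's quasi-likelihood test, 0 of 61 tested members at an adjusted p of 0.05), where 0.18% of 29394 features were called (0.153% higher and 0.0272% lower). Cplx3 was too low in TG to be tested. At an unadjusted p of 0.05, 10 members passed (16.4%) against 10.1% of all features. DESeq2 called 5, Snap23, Snap29, Stxbp5 and Unc13d among them, where it called 4.04% of 23095 features. The log2 changes of the 61 members ran from -0.24 (Syt16) to 0.66 (Unc13d), with a median of 0.01 for the members and of -0.00215 for all features. The 95% interval lay within a change of 1.5-fold in either direction for 57 of the 61. Of the marker genes of other cells, edgeR called 1 in TG, Fabp7 of satellite glia, at -0.68 ± 0.06 (adjusted p = 0.00435). Summed pituitary markers ran from 276 to 1334 CPM in TG vehicle and from 318 to 1720.0 CPM in TG morphine libraries. The part of these cells in the member values was not tested.

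Of the members with the smallest p in TG, Snap23 stood at 19.5, 20.7, 20.5, 18.8 and 18.6 CPM in vehicle libraries 1 to 5 and at 17.1, 17.7, 16.8, 16.9 and 18.4 CPM in morphine libraries 1 to 5. The morphine libraries were below the vehicle libraries without overlap, and the log2 change was -0.18 ± 0.05 (edgeR adjusted p = 0.207, DESeq2 adjusted p = 0.00615). Snap29, a SNARE of autophagosomes and trafficking, stood at 40.3, 42.8, 43.4, 40.5 and 42.1 CPM with vehicle and at 37.4, 39.9, 39.2, 39.03 and 39.2 CPM with morphine. Its groups did not overlap either, at -0.11 ± 0.03 (edgeR adjusted p = 0.243, DESeq2 0.0154). Unc13d stood at 1.91, 1.63, 1.33, 0.794 and 1.53 CPM with vehicle and 2.13, 2.15, 2.41, 2.16 and 2.55 CPM with morphine. The morphine libraries were all higher, at 0.66 ± 0.21 (edgeR adjusted p = 0.311, DESeq2 0.03725). Snap23, Snap29 and Unc13d were named for their small p, so the separation of their groups is no further support. Stxbp5 (0.09 ± 0.03), Unc13c (0.25 ± 0.09), Syn1 (0.18 ± 0.07), Syt3 (0.05 ± 0.02) and Syt7 (0.18 ± 0.08) were also among the 10. Their edgeR adjusted p ran from 0.313 to 0.495. For Snap23, Snap29 and Unc13d, the adjusted p over the other settings, DESeq2 included, ran from 0.00615 to 0.429 (Snap23), 0.0154 to 0.767 (Snap29) and 0.03725 to 0.629 (Unc13d). The log2 changes of Snap25, Vamp1 and Syt2, the SNAREs and sensor described above, were -0.01 ± 0.03, 0.01 ± 0.03 and -0.03 ± 0.03.

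In NAc, edgeR also called 0 of 61 tested members for morphine, as it called 0% of 29910 features, and DESeq2 called 0 where it called 0.797% of 32512 features. Stx11 was too low in NAc to be tested. At an unadjusted p of 0.05, 1 member passed (1.64%) against 5.71% of all features. Sensory neuron markers in NAc stood at 0.358% ± 0.0946 of their TG level with vehicle and 0.183% ± 0.0329 with morphine (SD, n = 5), and the part of this in the member values was not tested. Syt9 had the smallest p. It stood at 12.7, 23.5, 16.2, 14.7 and 16.3 CPM in the vehicle libraries and at 12.4, 10.95, 15.8, 12.1 and 10.9 CPM in the morphine libraries. The groups overlapped and vehicle library 2 was highest, with a log2 change of -0.43 ± 0.17 (adjusted p = 0.843) that was -0.27 without that library (adjusted p = 0.803, and 0.271 to 1.00 over all settings tried). Sv2c (0.24 ± 0.11), Vamp8 (-0.22 ± 0.10) and Syt15 (-0.33 ± 0.16) followed, with adjusted p from 0.891 to 0.902. The 95% interval lay within 1.5-fold for 48 of the 61, fewer than in TG, and its widest case was Cplx3 with -0.03 ± 0.94. For Snap25, Vamp2 and Syt1, the changes were 0.07 ± 0.17, -0.01 ± 0.12 and 0.12 ± 0.13.

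The change after morphine in TG minus that in NAc was called by edgeR for 0 of 62 members, where 0.0394% of 32998 features were called (0.0333% with a positive and 0.00606% with a negative difference). DESeq2 called 0 as well, where it called 0.741% of features, and 5 members (8.06%) passed an unadjusted p of 0.05 with edgeR, against 6.81% of all features. Among these were Stx4a (0.14 ± 0.05), Syt9 (0.43 ± 0.18), Sv2c (-0.34 ± 0.15) and Unc13d (0.82 ± 0.39), with adjusted p from 0.533 to 0.729. Stx4a, a syntaxin of plasma membranes outside the synapse, stood at 53.6 ± 1.48 CPM with vehicle and 55.6 ± 1.198 CPM with morphine in TG, and at 36.7 ± 1.29 and 34.5 ± 1.55 CPM in NAc.

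**Figure D4:**
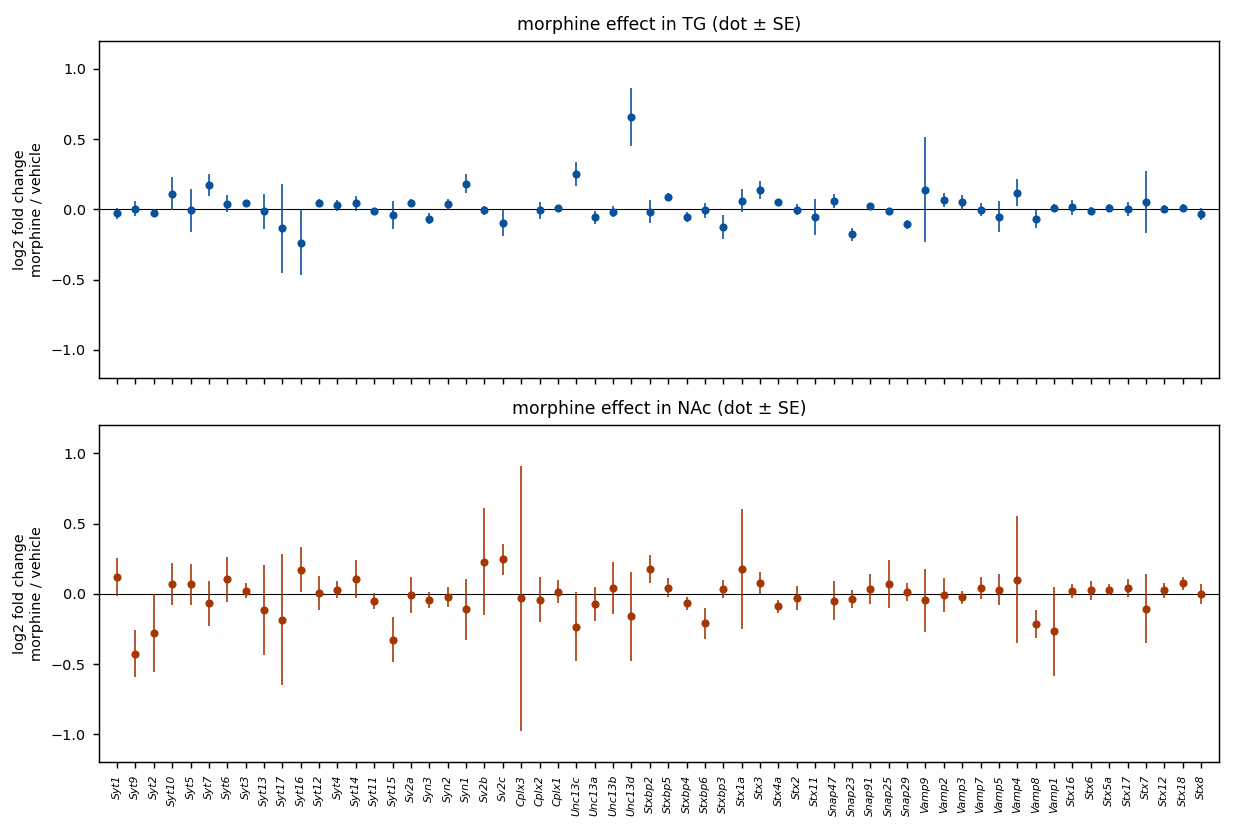
The log2 fold change of morphine against vehicle is plotted with its SE for tested members, in TG above and in NAc below. Most TG points lie near 0, the farthest being Unc13d at 0.66, and the NAc errors are wider, up to 0.94 for Cplx3. No point passes an adjusted p of 0.05.

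Transcripts of 1 gene were also compared, each against the other transcripts of its gene, by the transcript-level test of edgeR's diffSpliceDGE. Between TG and NAc of vehicle mice, 39 of 196 tested transcripts from 21 of 47 members differed at an adjusted p of 0.05 (19.9%), where 10.9% of 41752 did. Snap25, whose gene level did not pass between tissues, differed in its transcripts. Transcript NM_001291056.1 held 10.1%, 8.605%, 15.2%, 15.3% and 6.91% of the Snap25 counts in the 5 NAc vehicle libraries, and 0.0656% to 0.155% in the TG vehicle libraries (adjusted p = 1.1e-21). Snap91 likewise exchanged its main transcript. NM_013669.2 held 79.3% ± 3.45 of its counts in TG and 22.8% ± 8.74 in NAc, and NM_001277986.1 held 14.96% ± 2.11 and 71.7% ± 9.89 (SD, n = 5). Unc13b, also not called at the gene level, had 2.94% ± 0.762 of its counts on XM_006537786.3 in TG and 39.3% ± 5.02 in NAc. Stx2 had 73.4% ± 2.83 on NM_007941.3 in TG and 11.6% ± 8.89 in NAc. Vamp1 had 2.76% ± 0.0943 on NM_001080557.1 in TG and 28.7% ± 9.96 in NAc. In these 5 genes the 10 TG and 10 NAc libraries did not overlap for the transcript named. These genes were picked from the 21 called members, so their separation is no further test. The share of all transcripts that separate in this way was not examined. Unc13d was also called, on XM_006534190.2, but this transcript held under 1% in 2 of its TG vehicle libraries (0.597% and 0.245%) and 95.7% in another, at a total of 1.44 ± 0.417 CPM.

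Usage differed after morphine for 1 of 175 tested transcripts in TG (0.0916% of 34933 were called). It belonged to Syt2, where XM_006529324.3 held 9.03%, 4.42%, 5.55%, 9.58% and 9.06% of the counts in vehicle libraries 1 to 5 and 12.3%, 12.8%, 9.64%, 14.6% and 10.4% in morphine libraries 1 to 5. The morphine libraries were all higher, by 4.41 percentage points on average (adjusted p = 0.04599, edgeR). The call was lost without TG morphine library 1, 2, 4 or 5 or TG vehicle library 2, and without TG vehicle library 4 a transcript of Stxbp5 was called as well. Syt16, chosen after its values were seen, had 4.64%, 8.497%, 10.96%, 12.6% and 11.1% of its counts on XM_006515838.3 in the TG vehicle libraries, and this transcript was listed at 0 in all 5 TG morphine libraries. That change did not pass (adjusted p = 0.0697 in edgeR), and Syt16 totalled only 3.28 ± 0.829 CPM with vehicle and 2.79 ± 0.663 CPM with morphine. In NAc, edgeR called 0 of 171 transcripts (0.0171% of 35012 were called), and 3 passed an unadjusted p of 0.05.

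**Figure D5:**
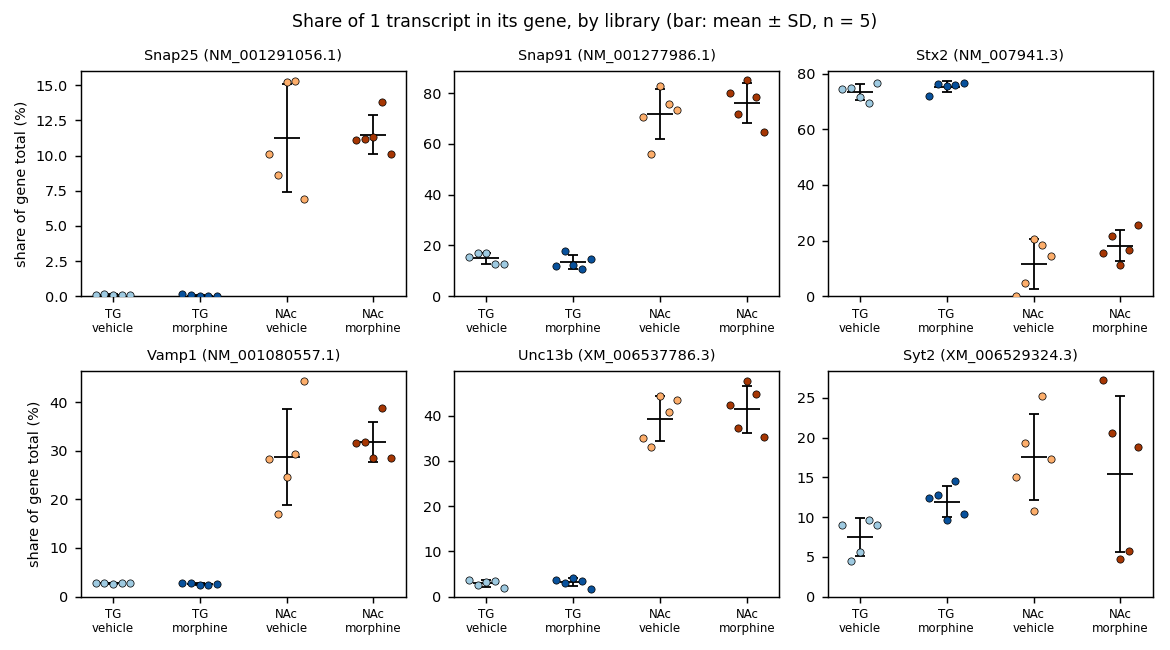
The share of 1 transcript in its gene's counts is plotted in percent for every library, with mean and SD for each group of 5. Shares of the first 5 transcripts, picked from genes called for usage between tissues, separate TG from NAc, for example 2.76% against 28.7% for Vamp1. That of Syt2 is 7.53% in TG vehicle and 11.9% in TG morphine libraries.

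Other genes of the release cycle also differed between the tissues of vehicle mice, by the same test, in which 67.4% of all features were called. Of 14 active zone scaffold genes, 3 were higher and 10 lower in TG, and with pan-neuronal scaling 0 and 14. Tspoap1 (RIM-binding protein 1) stood at 55.3 ± 2.62 in TG and 448 ± 30.8 CPM in NAc, and Erc1, which turned lower with pan-neuronal scaling, at 32.6 ± 3.89 and 18.2 ± 5.29 CPM. Of 20 genes of docking, priming and SNARE recycling, 8 were higher and 9 lower (1 and 18 with pan-neuronal scaling). Rab3d, a Rab of secretory granules, was higher in TG by 3.54 ± 0.11 (adjusted p = 1.83e-15), and Doc2b, a calcium sensor of spontaneous release, was lower, with a log2 difference of -6.35 ± 0.17 (adjusted p = 2.46e-16). Of 22 endocytosis genes, 17 were higher and 3 lower (1 and 21 with pan-neuronal scaling). Dnm3, a dynamin, stood at 669.6 ± 26.9 and 248.9 ± 58.4 CPM, and was lower with that scaling but higher with the median ratio (0.67). Sh3gl3, an endophilin, stood at 6.77 ± 0.7198 and 50.2 ± 2.74 CPM. Of 14 vesicle membrane genes, 4 were higher and 6 lower (0 and 14 with pan-neuronal scaling), and of 10 other SNAREs, 7 were higher and 2 lower (0 and 10).

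The vesicular transporters fill vesicles with transmitter. Slc17a6, a vesicular glutamate transporter, stood at 260.4 ± 8.71 in TG and 17.5 ± 19.5 CPM in NAc, where vehicle library 2 held 51.4 CPM. Slc32a1, the vesicular transporter of GABA and glycine, stood at 0.317 ± 0.194 and 228 ± 37.4 CPM. Of the 8 transporters, 3 were higher and 3 lower in TG, and with pan-neuronal scaling 2 and 6. Of 11 synaptotagmin-like and related C2 proteins, 5 were higher and 5 lower (4 and 7 with pan-neuronal scaling). Esyt1, which tethers the endoplasmic reticulum to the plasma membrane, stood at 315 ± 13.4 in TG and 8.96 ± 0.247 CPM in NAc, and Dysf, a membrane repair protein, at 139 ± 5.61 and 3.23 ± 1.03 CPM. Otof, the calcium sensor of inner hair cells, stood at 0.242 ± 0.115 and 67.6 ± 17.9 CPM. Over these 7 lists edgeR called no gene for morphine in either tissue. The smallest adjusted p were 0.197 in TG, for Pclo, a scaffold of the active zone (0.10 ± 0.03), and 0.382 in NAc, for Rab3gap2, a regulator of Rab3 (0.14 ± 0.03).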

How the data were processed

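The members and gene lists were chosen with earlier results of these data known. Of the members, 2 enter the counts but are not reported here one by one. The authors deposited expected counts (kallisto estimates) per RefSeq transcript, without normalisation, and 56.7% of the values were not whole. Per the submitters' processing notes, kallisto 0.43 and GRCm38 were used, and the sources used here give no settings. Per the labels' protocols, poly(A) libraries were strand-specific and sequenced for 101 cycles, in an earlier and a later set of lanes. Which libraries ran on which lanes is not given, so no batch could be examined, and the labels differ on whether 1 or both ends were read.

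Transcripts were summed per gene through the RefSeq annotation of GRCm38.p6 and, for 151, GENCODE M21. Of 107185 transcripts 86608 (80.8%) matched, holding 90.0% of the counts. The other 20577 stayed as unnamed features in library totals, so counts of a member on an unmatched transcript are missed. Sums were rounded. Reads shared by near-identical copies or isoforms are split by a model, and XM and XR transcripts are predicted. Totals were 61285916 to 76110288 counts in TG and 52402037 to 64357778 in NAc.

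After filterByExpr and TMM scaling, features were tested by quasi-likelihood in edgeR 4.0.16 under R 4.3.3 (2-sided, Benjamini-Hochberg, threshold 0.05), on the 10 libraries of a tissue for treatment and on all 20 for tissue and interaction. CPM use the TMM factors of all 20 libraries. SE is the log2 fold change over the root of F, and 95% intervals are 1.96 SE to either side. Level per kb divides by GENCODE transcript lengths weighted by counts, where these covered at least 50% of a member's counts. Scripts were tested on simulated counts. DESeq2 1.42.0, other scaling, filters, blocks and each library left out were tried. Within a tissue each library is a separate mouse. TG and NAc share mice by the codes in the labels, and the deviations of 1 mouse in both tissues had correlations from -0.040 to 0.029. The rule named, with values, up to 3 members per role with the highest level per length. For each comparison it named the 4 with the largest called difference in each direction or, where none was called, the smallest p. Of each pathway list it allowed up to 3 genes per direction and the 1 with the smallest p for morphine in each tissue. Only some of these pathway genes are given here. Values of further members, Sv2a, Syn3, Syt16 and Stxbp2 among them, were given outside this rule.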

Additional observations from a re-analysis of the deposited data

Results flagged for a closer look

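In 8 of 164 groups of 5 libraries (41 members in 4 groups), 1 library lay apart from the other 4 by a gap above Dixon's critical value of 0.71 of the range. Chance flags about 1 in 20 groups. NAc morphine library 3 was high for 3 members: Cplx1 at 399.5 CPM, Snap91 at 330.9 CPM and Syn1 at 288.1 CPM, against at most 355 CPM, 282 CPM and 193 CPM in the others. Vamp1 was high in NAc vehicle library 2, at 154.5 CPM. In TG, Cplx3 stood at 0.2176 CPM in vehicle library 2 and Stx1a at 20.93 CPM in vehicle library 5. Stx16 was low in TG morphine library 1, at 77.99 CPM, and Syt3 in TG vehicle library 2, at 53.86 CPM. The cause of these values was not tested.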

How the results depend on the processing

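Single results were followed for the 4 members with the largest tissue difference in each direction, in each set of mice. These were Syt2, Stx11, Vamp1 and Syt9, higher in TG, and Cplx3, Syt10, Syt13 and Syt17, lower in TG. The 4 members with the smallest p in each of TG, NAc and the interaction were followed as well. Of 696 values of these 28 results under other settings, 692 kept direction and side of the threshold, and the other 4, Snap23, Snap29 and Unc13d in TG among them, passed under DESeq2. The turns of other members under pan-neuronal scaling and the lost calls of Sv2b and Stxbp3, given above, are outside this tally. The tissue results in it were picked for their size, so keeping their side of the threshold is no further test. For morphine in TG, DESeq2 called 5 members where edgeR called 0, and the cause was not tested. Usage in TG fell from 1 called transcript to 0 when transcripts under 5% of their gene were dropped, which tests fewer transcripts. With the replicate number as a replicate block it was also 0, although same-numbered libraries share only a number (correlations -0.018 to 0.107). With the mouse as a replicate block, 54 members differed between tissues in vehicle mice, 53 in morphine mice and 0 in the interaction, 34 transcripts differed in usage, and the block changed no treatment count of members. Leaving out 1 library at a time gave 52 to 57 members for the tissue difference in vehicle mice, 52 to 55 in morphine mice and 0 to 0 for morphine in TG, in NAc and in the interaction. It gave 28 to 39 transcripts for usage between tissues, 0 to 2 for usage in TG and 0 to 0 in NAc. The tissue counts were 52 to 58 over the other settings in vehicle mice, with the splits given above for scaling. Slc17a7 as a covariate in NAc and the pituitary gene Gh as one in TG, both chosen after seeing the data, left the counts at 0. Precision is limited in NAc by the spread among libraries, and members under about 1 CPM rest on few reads.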
